A study of Mus musculus with 9 samples.

Results

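The microRNAs mmu-miR-130a-3p, mmu-miR-130b-3p, mmu-miR-130b-5p and mmu-miR-301a-3p were followed in small extracellular vesicles from mouse serum. They were taken by name from the deposited count table, not by a cutoff on their values, and are 4 of its 1064 known microRNAs. Earlier results of these data were known when they were chosen. Together they held 0.0501% of all microRNA counts, and 4 of 4 passed the filter on low counts. Small RNA libraries were made from vesicles precipitated from serum with the Total Exosome Isolation Reagent, in 3 groups of 3 libraries. The first group was wild type mice on chow (chow WT), the second was mice labelled wild type on a high fat diet (HFD WT), and the third was mice on the high fat diet with Sirt3 overexpression labelled as specific to adipose tissue (Sirt3 AKI). Sirt3 is a mitochondrial deacetylase, and the series title describes the high fat diet-fed mice as male. The library names of HFD WT carry the code SIRT3CKI and those of Sirt3 AKI the code SIRT3CKIcr, so the genotype of the HFD WT mice beyond the label wild type is not known here, and diet and that code cannot be told apart between HFD WT and chow WT. The sources used here do not give the promoter that drives the Sirt3 allele, the ages of the mice or the number of animals behind a library, and no Sirt3 messenger RNA was measured. Nothing in the labels says that the libraries of a group came from separate animals, so the p-values below measure the spread between these samples.

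The miR-130 and miR-301 microRNAs form one seed family: bases 2 to 8 of the mature RNA, which pair with target messenger RNAs, are the same in every 3p arm. In fat tissue the family is known for repression of PPARG, the transcription factor that drives adipocyte formation, and miR-130b in circulating vesicles has been studied as a signal of obesity. A microRNA hairpin yields a 5p and a 3p arm, and in this family the 3p arm is usually the abundant one, while miR-130b-5p is the less abundant arm of its hairpin and carries another seed.

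The mature sequences are shown because the comparisons below contrast members that share their seed and differ in the rest of the molecule. They are from RefSeq, build GRCm38.p6, where 4 of 4 members were found. Capitals mark the seed, bases 2 to 8.
mmu-miR-130a-3p: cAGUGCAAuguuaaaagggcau
mmu-miR-130b-3p: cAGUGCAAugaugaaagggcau
mmu-miR-301a-3p: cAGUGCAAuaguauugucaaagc
mmu-miR-130b-5p: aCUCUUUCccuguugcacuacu

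The 3p arms shared their first 9 bases. The miR-130a-3p and miR-130b-3p sequences were identical at 20 of 22 positions and differed by U11A and A13G, written as the miR-130a-3p base, the position counted from the 5′ end and the miR-130b-3p base. Against miR-301a-3p, miR-130a-3p was identical at 12 of the first 22 positions and miR-130b-3p at 11. The RefSeq entries used here hold 7 mature mouse microRNAs with this seed, and besides the 3 members none of them was listed in the count table. The count row of miR-301b-3p, a further family member, had no entry in the sequence table. No member had counts identical to those of another row.

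The hairpin of miR-130b is shown whole because it carries 2 of the members, the 5p arm first. Capitals mark both arms.
Mir130b: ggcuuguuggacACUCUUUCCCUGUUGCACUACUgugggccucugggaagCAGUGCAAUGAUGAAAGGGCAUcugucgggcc

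In GRCm38.p6, miR-130a-3p lies at chr2:84741116-84741137 on the minus strand, miR-130b-3p at chr16:17124071-17124092 on the minus strand and miR-301a-3p at chr11:87113054-87113076 on the plus strand. Mir130b and Mir301b, the genes of miR-130b and miR-301b, are neighbours whose hairpins are 257 bases apart within an intron of 2610318N02Rik, on the same strand. Mir301, the gene of miR-301a, lies in an intron of Ska2, which encodes a spindle and kinetochore protein. The miR-130a hairpin overlaps no annotated gene other than its own.

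Depth differed between the groups. Chow WT libraries held 225002 to 306974 microRNA counts, HFD WT libraries 1953935 to 2162009 and Sirt3 AKI libraries 1729416 to 2973432, so depth and diet cannot be told apart in the comparisons with chow WT. Sirt3 AKI replicates 2 and 3 carry another batch label than the other 7 libraries, which leaves 1 library of that group in the larger batch. Levels are given as normalised CPM, counts per 1000000 of the library total after scaling by TMM, a method that centres the bulk of the microRNAs of each library on the others. The deposited TPM divides by the library total alone. The 2 scales gave chow WT libraries different levels relative to HFD WT, because the TMM factors were 1.28 to 1.33 in chow WT and 0.757 to 0.832 in HFD WT. The edgeR tests covered 414 microRNAs with an adjusted p below 0.05 called a change. In bulk serum vesicles, fewer vesicles from a cell type and less microRNA per vesicle cannot be told apart.

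**Figure D1:**
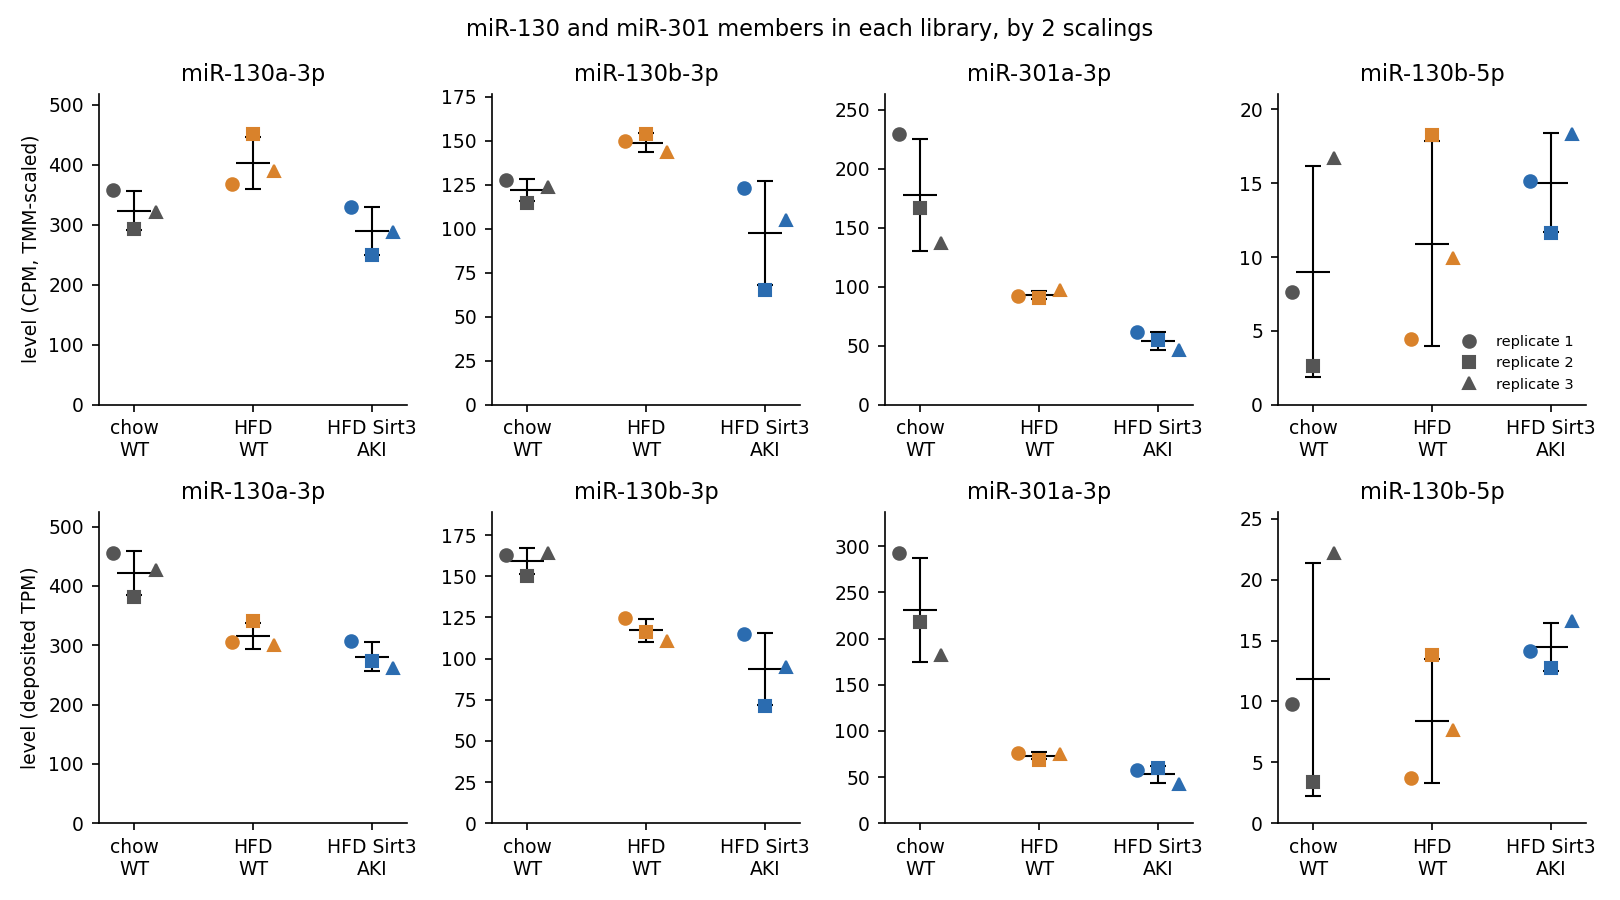
Level of each member in the 9 libraries (points, by replicate) with group mean and SD (lines), as normalised CPM after TMM scaling in the upper row and as deposited TPM in the lower row, each axis from 0. The chow WT libraries of miR-301a-3p lie above all other libraries on both scales, whereas miR-130a-3p and miR-130b-3p are higher in HFD WT than in chow WT in the upper row and lower in the lower row.

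The member called in HFD WT against chow WT with TMM was miR-301a-3p, known for activating NF-kappaB signalling by repression of its inhibitor NKRF. Its counts were 90, 64 and 41 in the chow WT libraries, 165, 139 and 146 in those of HFD WT and 170, 103 and 89 in those of Sirt3 AKI. Its levels were 230, 167 and 137 normalised CPM in the chow WT libraries, 91.8, 90.6 and 96.9 in those of HFD WT, and 61.3, 54.5 and 46.6 in those of Sirt3 AKI. The 3 groups did not overlap: chow WT was highest, HFD WT lay between and Sirt3 AKI was lowest. The group means were 178 ± 47.2, 93.1 ± 3.37 and 54.1 ± 7.34 normalised CPM (SD, n = 3). Deposited TPM gave the same order without overlap, with means of 231 ± 56.6, 73.2 ± 4.11 and 53.0 ± 9.41. Spread was widest in chow WT, where the counts were lowest.

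In HFD WT against chow WT, miR-301a-3p fell 1.92-fold (log2 fold change -0.94, SE 0.22, 95% confidence interval -1.42 to -0.45, edgeR adjusted p = 0.00634). Among the members, 1 of 4 was called lower and 0 higher, where 37.7% of all tested microRNAs were called, 21.5% higher and 16.2% lower. With library totals, 2 of 4 members were called lower and 0 higher, where 34.5% of all were called lower and 4.83% higher. The TMM value of miR-301a-3p lay at percentile 17.1 of all tested microRNAs. The call was kept in 19 of 19 alternatives, with log2 fold changes between -1.66 and -0.70. The largest adjusted p among these edgeR, DESeq2 and limma fits was 0.0499, just inside the threshold. Relative to the median of all tested microRNAs the change was -1.09 with TMM, -1.09 with library totals and -1.11 by limma from TPM, so the choice of scaling moved the value and the median together.

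The largest difference of miR-301a-3p among the 3 comparisons was between Sirt3 AKI and chow WT, where it was 3.29-fold lower (log2 fold change -1.72, SE 0.22, 95% confidence interval -2.21 to -1.22, edgeR adjusted p = 1.22e-04). This comparison shares the chow WT libraries with the preceding one. Again 1 of 4 members was called lower and 0 higher, where 39.9% of all tested microRNAs were called, 20.3% higher and 19.6% lower. With library totals, 3 of 4 members were called lower and 0 higher, where 31.2% of all were called lower and 9.66% higher. The call was kept in 19 of 19 alternatives, between -2.13 and -1.35.

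Between Sirt3 AKI and HFD WT the difference of miR-301a-3p was smaller, a log2 fold change of -0.78 (SE 0.21, 95% confidence interval -1.25 to -0.30), and its edgeR adjusted p of 0.0495 lay just inside the threshold. It was the 1 member of 4 called, where 8.94% of all tested microRNAs were called, 1.45% higher and 7.49% lower. With library totals 0 of 4 members were called, where 2.66% of all were called lower and 8.7% higher. The call was kept in 3 of 19 alternatives, although all 19 had the same sign (-0.87 to -0.41). With batch as a term of the fit the value was -0.60 (adjusted p = 0.419), and in the larger batch alone it was -0.46 (adjusted p = 0.320). In that batch the group has 1 library, so its spread was taken from the chow WT and HFD WT libraries. When a chow WT library, an HFD WT library or Sirt3 AKI replicate 3 was left out, the adjusted p also exceeded 0.05 and reached 0.172 at most.

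The most abundant member was miR-130a-3p, which is best known as a repressor of PPARG in preadipocytes and also acts in blood vessel cells. It ranked 117, 101 and 117 among 1169 microRNAs in chow WT, HFD WT and Sirt3 AKI by mean level. Its counts were 140, 112 and 96 in the chow WT libraries, 662, 692 and 587 in those of HFD WT and 915, 472 and 550 in those of Sirt3 AKI. Its levels were 357, 292 and 321 normalised CPM in the chow WT libraries, 368, 451 and 390 in those of HFD WT and 330, 250 and 288 in those of Sirt3 AKI. All HFD WT libraries lay above all others, and the chow WT and Sirt3 AKI libraries overlapped. The means were 323 ± 32.5, 403 ± 42.9 and 289 ± 40.0 normalised CPM (SD, n = 3).

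The log2 fold change of miR-130a-3p in HFD WT against chow WT was 0.32 (SE 0.16, 95% confidence interval -0.036 to 0.67) and did not pass the test (edgeR adjusted p = 0.145). The sign depended on the scaling. With library totals the value was -0.42 and was called (adjusted p = 0.0339), and with limma on log2(TPM + 1) it was -0.41 and was called (adjusted p = 0.0453), while the larger batch alone gave a called value of 0.37 (adjusted p = 0.0386). Library totals moved the median over all tested microRNAs from 0.15 to -0.57, and relative to that median miR-130a-3p stood at 0.16 with TMM and 0.16 with library totals. On the TPM scale the means were 422 ± 37.3 in chow WT and 316 ± 22.1 in HFD WT, again without overlap but in the other order.

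The Sirt3 AKI libraries all had less miR-130a-3p than those of HFD WT, and the log2 fold change was -0.48 (SE 0.15, 95% confidence interval -0.82 to -0.14, edgeR adjusted p = 0.0754). It was below 0 in 19 of 19 alternatives and was called in 1 of them, without Sirt3 AKI replicate 1 (-0.57, adjusted p = 0.0333). On the TPM scale the groups overlapped. Relative to chow WT its log2 fold change was -0.16 (SE 0.16, edgeR adjusted p = 0.456), and 0.23 in the larger batch.

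The miR-130b-3p arm followed miR-130a-3p more closely than miR-301a-3p did. Its counts were 50, 44 and 37 in the chow WT libraries, 269, 236 and 216 in those of HFD WT and 341, 123 and 200 in those of Sirt3 AKI. Its levels were 128, 115 and 124 normalised CPM in the chow WT libraries, 150, 154 and 143 in those of HFD WT, and 123, 65.1 and 105 in those of Sirt3 AKI. The HFD WT libraries were again the highest, and Sirt3 AKI replicate 2, of the smaller batch, was the lowest of the 9. The means were 122 ± 6.51, 149 ± 5.23 and 97.6 ± 29.6 normalised CPM (SD, n = 3). Across the 9 libraries, log2 levels of miR-130a-3p had a Pearson r of 0.89 with those of miR-130b-3p and 0.30 with those of miR-301a-3p. After the group means were taken out these were 0.77 and 0.39. Between miR-130b-3p and miR-301a-3p r was 0.41, or 0.12 after the group means were taken out. These libraries share 3 groups, depth differences and a common scaling, so the r values are descriptions.

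In HFD WT against chow WT, miR-130b-3p had a log2 fold change of 0.29 (SE 0.23, 95% confidence interval -0.23 to 0.80, edgeR adjusted p = 0.382). Scaling turned its sign as well, to -0.44 with library totals (adjusted p = 0.115), and relative to the median of all tested microRNAs it stood at 0.13 with either scaling. In Sirt3 AKI against HFD WT the log2 fold change was -0.61 (SE 0.22, 95% confidence interval -1.10 to -0.12, edgeR adjusted p = 0.108). It was called in 1 of 19 alternatives, without Sirt3 AKI replicate 1 (-0.80, adjusted p = 0.0257), and in the larger batch alone it was -0.14 (adjusted p = 0.787). Relative to chow WT the log2 fold change was -0.32 (SE 0.23, edgeR adjusted p = 0.313), and without Sirt3 AKI replicate 2 it was 0.063.

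Separation of the groups was common among all microRNAs. In HFD WT against chow WT, 3 of 4 members had groups without overlap in normalised CPM, 2 higher and 1 lower, where 54.8% of all tested microRNAs did, 30.9% higher and 23.9% lower. On the TPM scale these 3 members, miR-130a-3p, miR-130b-3p and miR-301a-3p, were all lower without overlap, where 46.4% of all tested microRNAs were. In Sirt3 AKI against HFD WT, 3 of 4 members were lower without overlap and 0 higher, where 26.1% of all did, 8.7% higher and 17.4% lower. On the TPM scale 1 of 4, miR-301a-3p, was lower without overlap, where 9.18% of all were. In Sirt3 AKI against chow WT, 1 of 4 was lower without overlap, where 49.3% of all did, 22.9% higher and 26.3% lower. On the TPM scale miR-130a-3p, miR-130b-3p and miR-301a-3p were lower without overlap, 3 of 4, where 37.4% of all were. The groups of miR-130b-5p overlapped on both scales in every comparison. The median log2 fold changes of the 4 members were 0.30, -0.54 and -0.24 in these comparisons, and those of all tested microRNAs 0.15, -0.02 and 0.06. With library totals they were -0.43, -0.25 and -0.67 for the members and -0.57, 0.27 and -0.35 for all.

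**Figure D2:**
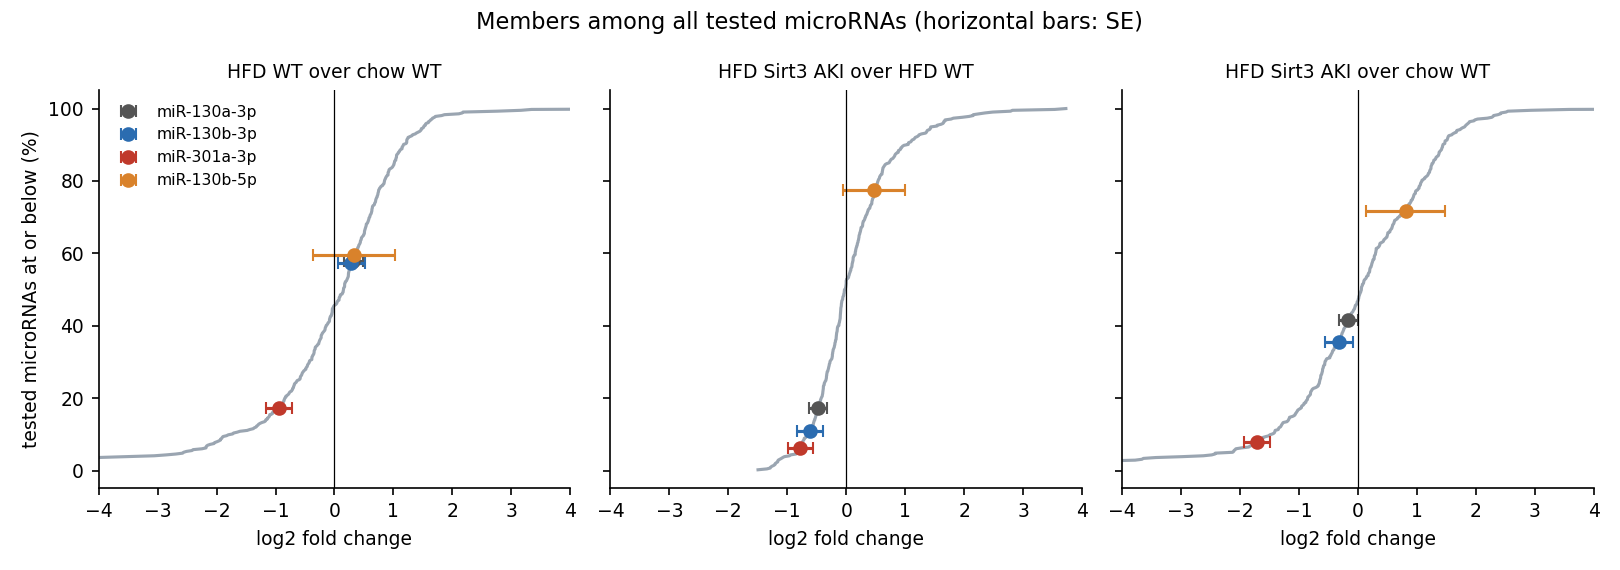
Members (points, with SE as horizontal bars) on the cumulative distribution of the log2 fold changes of all 414 tested microRNAs (grey line, horizontal axis limited to values from -4 to 4), in each comparison. The point of miR-301a-3p lies at the lowest percentile of the 4 members in each panel, and miR-130b-5p has the widest bars.

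Because the shares of the members among themselves do not depend on how libraries are scaled, the make-up of the family was computed from the raw counts of its 4 3p arms, miR-130a, miR-130b, miR-301a and miR-301b. This measure was chosen after the values were seen and carries no test. The share of miR-301a-3p was 30.8%, 27.4% and 22.9% in the chow WT libraries, 14.8%, 12.8% and 15.0% in those of HFD WT, and 11.6%, 14.5% and 10.5% in those of Sirt3 AKI. Chow WT lay above both groups on the high fat diet, which overlapped with each other. The share of miR-130a-3p was 49.8 ± 3.31%, 61.1 ± 2.23% and 64.5 ± 2.22% in the same order (SD, n = 3), that of miR-130b-3p 18.9 ± 1.77%, 22.7 ± 1.31% and 21.4 ± 3.46%, and that of miR-301b-3p 4.30 ± 1.60%, 2.01 ± 0.589% and 1.90 ± 0.949%. Both miR-301 arms took the largest mean share in chow WT, and both miR-130 arms the smallest.

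Within a library, the count of miR-301a-3p per count of miR-130a-3p was 0.547 ± 0.110 in the chow WT libraries, 0.233 ± 0.0278 in those of HFD WT and 0.189 ± 0.0283 in those of Sirt3 AKI (SD, n = 3). The count of miR-130b-3p per count of miR-130a-3p was 0.378 ± 0.0188, 0.372 ± 0.0328 and 0.332 ± 0.0623. The first ratio separated chow WT from the other groups, and the second overlapped among all 3. The summed level of the 4 3p arms was 651 ± 81.2 normalised CPM in the chow WT libraries, 658 ± 45.6 in those of HFD WT and 450 ± 77.7 in those of Sirt3 AKI, but 848 ± 89.1, 517 ± 18.5 and 436 ± 51.0 as TPM, so the chow WT sum relative to HFD WT depended on the scale.

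**Figure D3:**
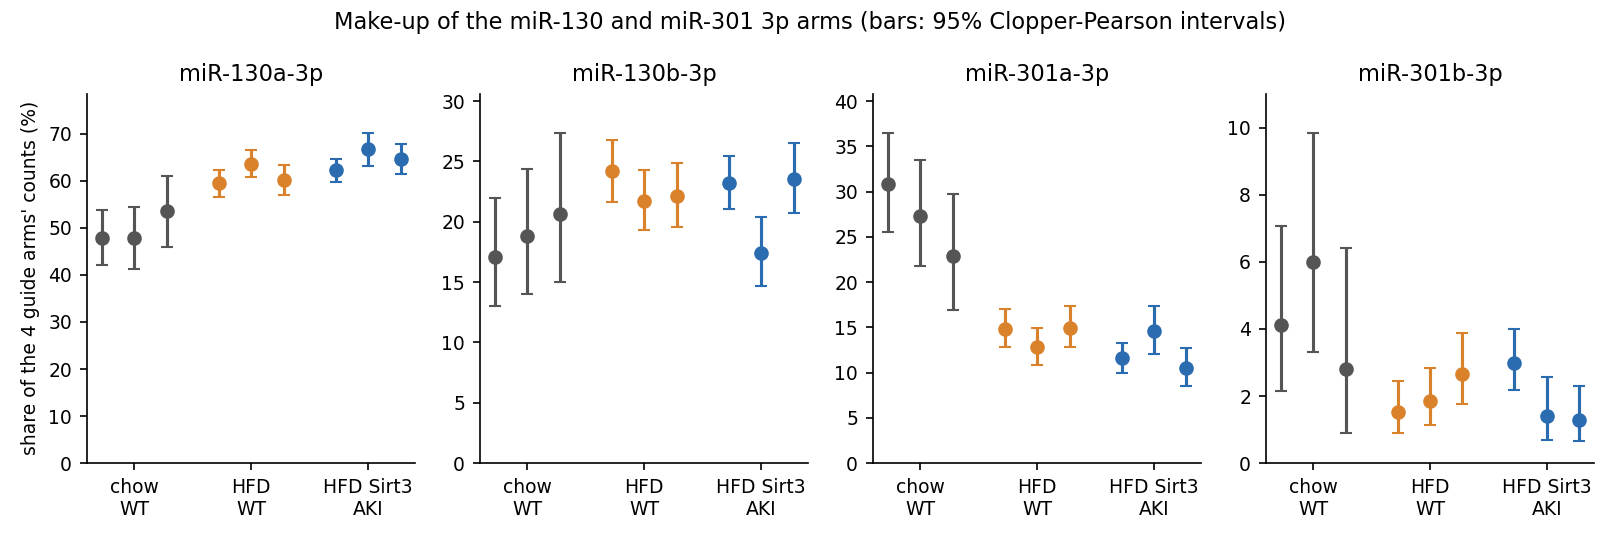
Share (%) of each 3p arm in the summed counts of the 4 3p arms, per library (points) with exact 95% Clopper-Pearson intervals (bars), each panel with its own axis from 0. The miR-301a-3p share is 22.9% to 30.8% in chow WT and 10.5% to 15.0% in the 6 libraries on the high fat diet, and the intervals cover counting error only.

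The least abundant member was miR-130b-5p, the other arm of the miR-130b hairpin. Its counts were 3, 1 and 5 in the chow WT libraries, 8, 28 and 15 in those of HFD WT and 42, 22 and 35 in those of Sirt3 AKI. Its levels were 7.65, 2.61 and 16.7 normalised CPM in the chow WT libraries, 4.45, 18.2 and 9.96 in those of HFD WT, and 15.1, 11.6 and 18.3 in those of Sirt3 AKI. The 3 groups overlapped, and in chow WT each level rested on at most 5 counts. The means were 8.99 ± 7.14, 10.9 ± 6.94 and 15.0 ± 3.34 normalised CPM (SD, n = 3). No comparison was called: the log2 fold changes were 0.33 (SE 0.70, edgeR adjusted p = 0.756) in HFD WT against chow WT, 0.48 (SE 0.52, adjusted p = 0.614) in Sirt3 AKI against HFD WT, and 0.81 (SE 0.67, adjusted p = 0.374) in Sirt3 AKI against chow WT. The 95% confidence intervals, -1.21 to 1.87, -0.68 to 1.63 and -0.68 to 2.30, include upward changes of more than 2-fold. The first also includes downward changes of more than 2-fold.

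Both arms come from the hairpin printed above. Their share is a ratio of counts from the same library, so it does not depend on the scaling. The 5p arm made up 5.66%, 2.22% and 11.9% of miR-130b counts in the chow WT libraries, 2.89%, 10.6% and 6.49% in those of HFD WT, and 11.0%, 15.2% and 14.9% in those of Sirt3 AKI. The Sirt3 AKI libraries lay above all HFD WT libraries, but only just. The lowest Sirt3 AKI share, 11.0%, had an exact 95% interval of 8.02% to 14.5%. The highest HFD WT share, 10.6%, had an interval of 7.16% to 15.0%. How common such a separation was among all hairpins was not computed. Chow WT overlapped with both groups. The mean shares were 6.60 ± 4.91%, 6.66 ± 3.86% and 13.7 ± 2.35% (SD, n = 3). Over 103 hairpins with both arms tested, limma on log2 ratios of normalised CPM + 1 gave miR-130b a difference of 1.25 in Sirt3 AKI against HFD WT (SE 0.60, 95% confidence interval -0.13 to 2.62, adjusted p = 0.363). By limma 0% of the hairpins were called there, with 17 at an unadjusted p below 0.05. Relative to chow WT the difference was 1.31 (95% confidence interval -0.066 to 2.69, limma adjusted p = 0.128), where 30.1% of hairpins were called. In HFD WT against chow WT it was 0.065 (SE 0.60, limma adjusted p = 0.935), where 35.9% were called.

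**Figure D4:**
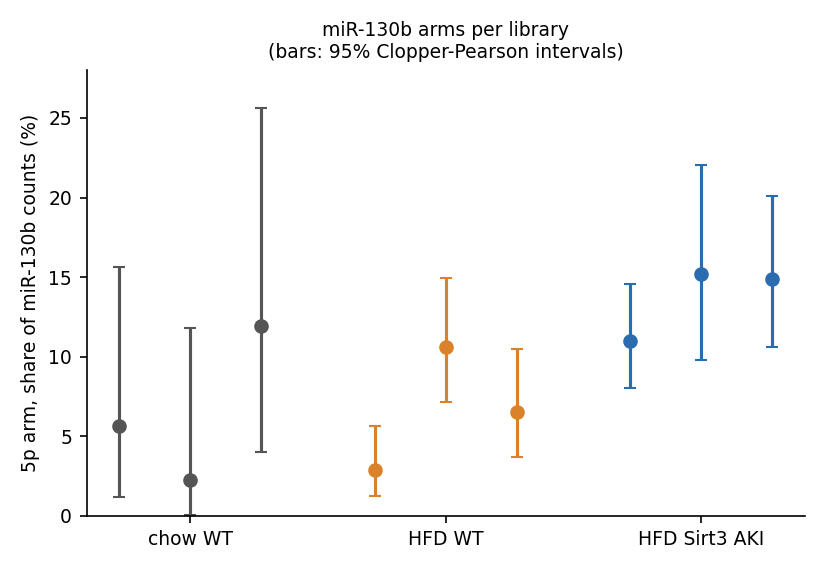
Share (%) of the 5p arm in the counts of both miR-130b arms per library (points) with exact 95% Clopper-Pearson intervals (bars). The Sirt3 AKI libraries lie at 11.0% to 15.2% and the HFD WT libraries at 2.89% to 10.6%, and the intervals of the nearest libraries of these groups overlap.

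Of the remaining family arms, miR-301b-3p, a neighbour of miR-130b on chromosome 16, was scarce. Its counts were 12, 14 and 5 in the chow WT libraries, 17, 20 and 26 in those of HFD WT and 44, 10 and 11 in those of Sirt3 AKI. Its levels were 27.9 ± 10.2, 13.2 ± 3.91 and 8.97 ± 5.97 normalised CPM (SD, n = 3), an order like that of miR-301a-3p. Its log2 fold change was -1.10 in HFD WT against chow WT (SE 0.52, edgeR adjusted p = 0.121), -0.52 in Sirt3 AKI against HFD WT (SE 0.48, adjusted p = 0.539) and -1.62 in Sirt3 AKI against chow WT (SE 0.52, adjusted p = 0.0296). The last call was kept in 12 of 19 alternatives, and in the larger batch the value was -0.64 (adjusted p = 0.359). The 5p arms were near absent: miR-301a-5p had 1 to 11 counts per library, miR-130a-5p 0 to 3 and miR-301b-5p 0 to 2.

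The microRNAs miR-19a-3p and miR-19b-3p, growth-promoting products of the miR-17 to miR-92 cluster, carry bases 3 to 8 of the miR-130 family within their own seed at another offset. The sequence of miR-19b-3p is printed for comparison with the members above, with its bases 2 to 8 in capitals.
mmu-miR-19b-3p: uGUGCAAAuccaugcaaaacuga

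With TMM, neither was called in HFD WT against chow WT or in Sirt3 AKI against HFD WT. With library totals miR-19b-3p was called lower in HFD WT against chow WT (log2 fold change -1.08, SE 0.17, edgeR adjusted p = 5.97e-04, where the median of all was -0.57) and miR-19a-3p was not (-0.69, adjusted p = 0.0881). Lower miR-19b-3p was called in Sirt3 AKI against chow WT (log2 fold change -0.83, SE 0.19, edgeR adjusted p = 0.00425), but not when batch was a term of the fit (-0.72, adjusted p = 0.0531) or in the larger batch (-0.53, adjusted p = 0.0633).

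The microRNAs whose levels followed each member most closely were found by Pearson correlation of log2 normalised CPM over the 9 libraries, as a description. For miR-301a-3p they were miR-30a-3p (r = 0.971), which the title of the series names, miR-350-3p (0.952) and miR-144-5p (0.940). For miR-130a-3p they were miR-451a (0.963), let-7i-5p (0.934) and miR-107-3p (0.927), and for miR-130b-3p miR-15b-5p (0.971), miR-451a (0.914) and let-7i-5p (0.908). For miR-130b-5p the highest value was 0.755, with miR-322-3p. The points share groups, depth and scaling.

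Erythroid microRNAs are among these, and the summed level of the 4 erythroid markers, miR-486a-5p, miR-144-3p, miR-144-5p and miR-451a, also differed between groups. It ranged from 100111 to 119397 normalised CPM in the chow WT libraries, from 210418 to 250310 in those of HFD WT and from 144659 to 203611 in those of Sirt3 AKI, with none of the 4 at 0. By unadjusted edgeR p, miR-486a-5p tied with another tested microRNA in every comparison (ranks 8.5, 133.5 and 20.5). Whether another row repeats its counts was not examined. In HFD WT against chow WT 1 of 4 markers rose and 1 fell, where 21.5% of all tested microRNAs were called higher and 16.2% lower. In Sirt3 AKI against HFD WT 3 of 4 fell, where 7.49% of all were called lower. With library totals 2 of 4 fell there, where 2.66% of all were called lower. As normalised CPM the sum was highest in HFD WT, as were the levels of miR-130a-3p and miR-130b-3p. As a percentage of library totals the sum averaged 13.9 for chow WT, 17.9 for HFD WT and 17.1 for Sirt3 AKI. The SDs of these shares were 1.18, 0.897 and 1.31. The rise of this share from chow WT to HFD WT was that of miR-486a-5p, with mean TPM of 79873 and 133668. Mean TPM of the other markers was lower in HFD WT than in chow WT. It was 44370 against 56318 for miR-451a, 238 against 348 for miR-144-3p and 837 against 2377 for miR-144-5p. Unlike the sum, miR-130a-3p and miR-130b-3p were highest for chow WT on the TPM scale. Mean miR-130a-3p was 422 TPM there against 316 for HFD WT, and mean miR-130b-3p 159 against 117. The part of the erythroid markers in the values of these members was not tested. Endothelial miR-126a arms summed to 20337 to 23173, 39670 to 41416 and 27173 to 28322 normalised CPM in the same order, with both arms higher in HFD WT than in chow WT and lower in Sirt3 AKI than in HFD WT, calls that library totals did not give. The 5 epithelial markers summed to 10480 to 11876, 4038 to 5419 and 6894 to 15176, with 3 lower and 1 higher in HFD WT against chow WT, beside the fall of miR-301a-3p. The hepatocyte microRNA miR-122-5p ranged from 3372 to 6511 normalised CPM in the chow WT libraries, from 4148 to 4761 in those of HFD WT and from 5679 to 25960 in those of Sirt3 AKI, so the last overlapped with chow WT. It was called higher in Sirt3 AKI than in HFD WT (log2 fold change 1.68, edgeR adjusted p = 0.0412) and than in chow WT (1.52, adjusted p = 0.0172). In the larger batch, with 1 Sirt3 AKI library, these values were 0.48 and 0.39. With library totals the value against HFD WT was 2.05 and was called, and that against chow WT was 1.17 and was not. The 2 lymphocyte markers summed to 4278 to 4478, 9439 to 10959 and 10729 to 13674 normalised CPM in the order chow WT, HFD WT and Sirt3 AKI. Both were called higher in each group on the high fat diet than in chow WT, also with library totals. Of all tested microRNAs 21.5% were called higher in HFD WT and 20.3% in Sirt3 AKI, or 4.83% and 9.66% with library totals. The 3 myeloid and platelet markers summed to 15142 to 15640, 19711 to 21632 and 13619 to 18554. Of these 3, 2 were called higher in HFD WT against chow WT with TMM. With library totals 1 was called higher and 2 lower, where 4.83% of all were called higher and 34.5% lower. The part of these markers in the results was not tested.

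Other microRNAs that act on adipocyte formation moved in both directions between HFD WT and chow WT with TMM. Of 8 tested repressors of adipogenesis, in a list of 9, 1 rose, 3 fell and 4 did not pass in HFD WT against chow WT (median log2 fold change -0.043), where 21.5% of all tested microRNAs were called higher and 16.2% lower. The decreases with the smallest adjusted p were in miR-155-5p, a microRNA of activated immune cells (-1.71, edgeR adjusted p = 8.11e-06), and miR-145a-5p, a smooth muscle microRNA (-2.51, adjusted p = 1.52e-05), and the increase was in miR-125a-5p (0.75, adjusted p = 0.00151), which had 0.020 with library totals and was not called. The PPARG-targeting miR-27a-3p and miR-27b-3p had log2 fold changes of 0.30 and 0.26 (edgeR adjusted p = 0.0844 and 0.100), close to those of miR-130a-3p and miR-130b-3p, and like these turned negative with library totals, to -0.44 and -0.47. Of 12 promoters of adipogenesis 4 rose and 4 fell (median 0.13), among them miR-30d-5p (0.86, edgeR adjusted p = 2.09e-04, and 0.12 with no call under library totals) and miR-378a-5p (-1.96, adjusted p = 2.05e-05). With library totals none rose in either list, and 6 repressors and 7 promoters fell, with medians of -0.78 and -0.60. Of all tested microRNAs 4.83% were then called higher and 34.5% lower, with a median of -0.57. In the larger batch, and without Sirt3 AKI replicate 2, 3 repressors rose. The promoters that fell numbered 2 without chow WT replicate 2, chow WT replicate 3, HFD WT replicate 3 or Sirt3 AKI replicate 3. Over all tested microRNAs, the fits with 1 library left out called 116 to 188 in either direction.

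Between Sirt3 AKI and HFD WT, 1 of 8 repressors rose and 0 fell (median 0.069), and 0 of 12 promoters rose and 2 fell (median -0.12), where 1.45% of all tested microRNAs were called higher and 7.49% lower. The repressor was miR-222-3p (0.52, edgeR adjusted p = 0.0497, a call kept in 7 of 19 alternatives), and the promoter with the smaller adjusted p was miR-17-5p (-1.05, adjusted p = 0.00473, a call kept in 17 of 19 alternatives). Against chow WT, 1 repressor rose in Sirt3 AKI and 3 fell, and 4 promoters rose and 4 fell, where 20.3% of all were called higher and 19.6% lower. With library totals 1 repressor rose there and 3 fell, and 1 promoter rose and 6 fell (medians -0.28 and -0.53). Of all tested microRNAs 9.66% were then called higher and 31.2% lower, with a median of -0.35. In the larger batch, with 1 Sirt3 AKI library, the medians against chow WT were 0.38 for repressors and 0.19 for promoters. Over the alternatives between Sirt3 AKI and HFD WT, 0 to 2 repressors and 0 to 2 promoters rose, and 0 to 2 promoters fell. There 1 repressor was called higher without HFD WT replicate 1 or Sirt3 AKI replicate 2, and 0 without each of the other 7 libraries. Against chow WT, 3 repressors rose without Sirt3 AKI replicate 2 and 2 promoters without chow WT replicate 3. Over all tested microRNAs, the fits with 1 library left out called 13 to 102 against HFD WT and 131 to 178 against chow WT. Lists and members were chosen with earlier results of these data known, and the comparisons share groups, so the counts are descriptions.

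**Figure D5:**
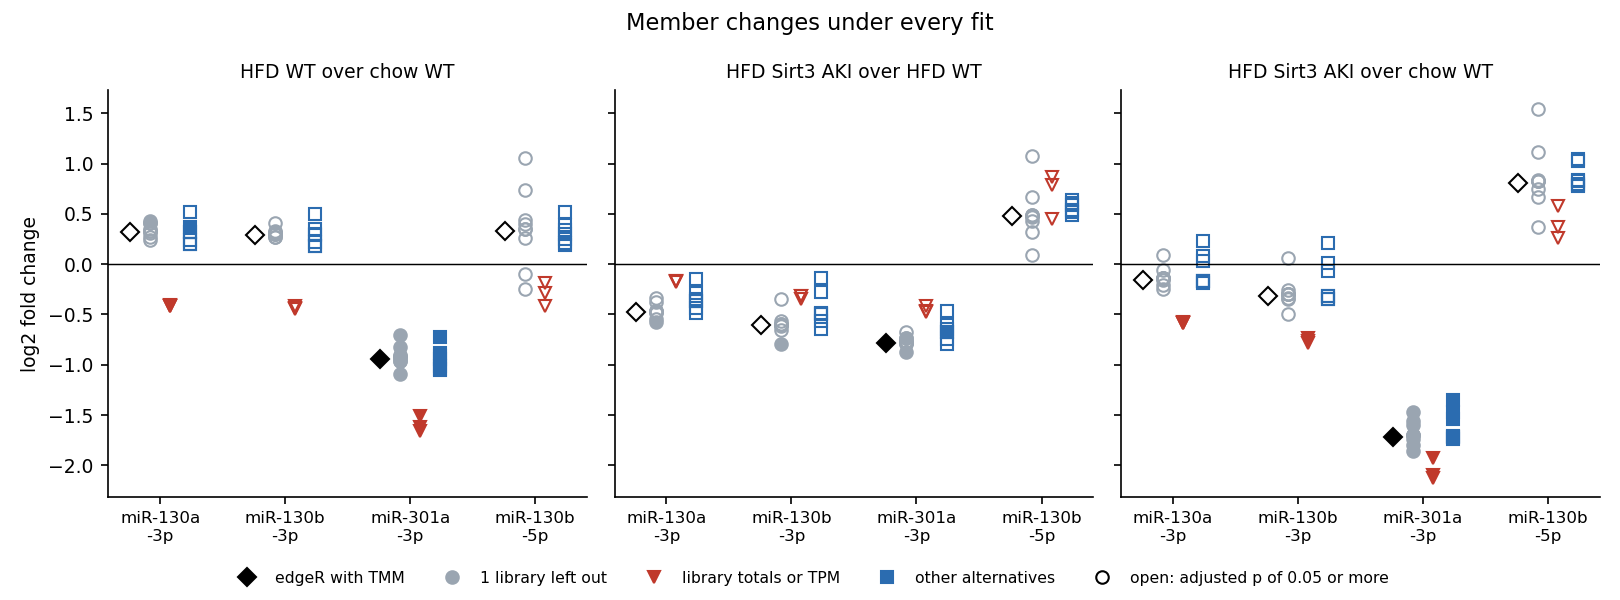
Log2 fold change of each member (vertical axis) in each comparison with edgeR and TMM (diamonds), without single libraries (circles), with library totals or TPM (triangles) and under other alternatives (squares), filled where the adjusted p was below 0.05. Every miR-301a-3p mark is below 0 in all 3 panels, while the triangles of miR-130a-3p and miR-130b-3p are below 0 and their diamonds above 0 in HFD WT over chow WT.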

How the data were processed

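Small RNA was sequenced from serum vesicles in 9 libraries. The authors deposited counts per mature microRNA and TPM values. In the tables used, TPM equalled the count per 1000000 of the library total to within 5.00e-05, so it has no length term. Bowtie 0.12.2 and mm8 appear in the submitters' processing notes without a role. How reads were counted, and against which microRNA reference, is not given in the sources used here.

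Counts of 1169 microRNAs (1064 known, 105 predicted) were filtered with filterByExpr at a minimum count of 10, which left 414 and removed 0.0543% of counts. They were scaled by TMM and tested with edgeR 4.0.16 quasi-likelihood fits of 3 group means over all 9 libraries (R 4.3.3), with Benjamini-Hochberg adjustment over the 414. SE was taken from the F statistic and 95% intervals from its degrees of freedom. Arm ratios of 103 hairpins and the TPM alternatives were fitted with limma 3.58.1. Alternatives also included DESeq2 1.42.0. The fits were tested on simulated data.

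Named microRNAs are the members, arms and microRNAs of related seed, the 3 most correlated with each member, miR-27a-3p, miR-27b-3p and those with the smallest adjusted p in the adipogenesis lists. The members, lists and tests were chosen with earlier results of these data known. Replicate numbers were not taken as pairs. No library repeated another. Intervals on shares cover counting error only, since PCR reads without molecular identifiers are not independent molecules.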

Additional observations from a re-analysis of the deposited data

How the results depend on the processing

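Of the members and comparisons, the fall of miR-301a-3p in HFD WT and in Sirt3 AKI against chow WT kept its call in every alternative run. With single libraries left out it ranged from -1.09 to -0.70 and from -1.86 to -1.47. In HFD WT against chow WT the edgeR adjusted p then reached 0.0416 at most.

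In HFD WT against chow WT the other members turned negative with library totals (miR-130a-3p -0.42, miR-130b-3p -0.44, miR-130b-5p -0.41), with limma on log2(TPM + 1) (-0.41, -0.44, -0.29) and on log2(TPM + 10) (-0.40, -0.41, -0.19). The same 3 settings gave -0.44, -0.43 and -0.43 for miR-27a-3p and -0.47, -0.47 and -0.47 for miR-27b-3p. The larger batch alone gave a called 0.37 for miR-130a-3p. With single libraries left out miR-130a-3p ranged from 0.24 to 0.43, called without Sirt3 AKI replicate 2 (0.43, adjusted p = 0.0270), and miR-130b-5p from -0.25 (without HFD WT replicate 2; -0.10 without chow WT replicate 2) to 1.06. The arm ratio of miR-130b was -0.12 with a pseudocount of 10 and ranged from -0.48 (without chow WT replicate 2; -0.35 without HFD WT replicate 2) to 0.61.

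In Sirt3 AKI against HFD WT the count of changed microRNAs, 37, was 24 with DESeq2 size factors, 65 with DESeq2, 3 in a fit of only these groups, 1 with the batch label as a term and 23 in the larger batch, and 13 (without HFD WT replicate 3) to 102 (without Sirt3 AKI replicate 1) with single libraries left out. The value of miR-301a-3p, -0.78, was no longer called with library totals (-0.47), DESeq2 size factors (-0.67), no filter (-0.74), only these groups (-0.65), the batch term (-0.60), the larger batch (-0.46), limma on log2(TPM + 1) (-0.47) or on log2(TPM + 10) (-0.41). It ranged from -0.87 to -0.68 with single libraries left out, called without Sirt3 AKI replicate 1 or 2 and with DESeq2. Left-out libraries gave miR-130a-3p -0.57 to -0.34 and miR-130b-3p -0.80 to -0.34. For miR-301b-3p, -0.52, the batch term gave 0.27 and the larger batch 0.41.

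In Sirt3 AKI against chow WT, library totals and both limma fits called miR-130a-3p (-0.59, -0.59, -0.57) and miR-130b-3p (-0.76, -0.79, -0.73). The sign turned for miR-130a-3p without a filter (0.085), with the batch term (0.028) and in the larger batch (0.23), and for miR-130b-3p with the batch term (0.011) and in the larger batch (0.21). Left-out libraries gave -0.24 to 0.092 and -0.50 to 0.063, the upper values without Sirt3 AKI replicate 2. The arm ratio ranged from 0.76 to 1.86, called without chow WT replicate 3 (1.86, adjusted p = 0.0340). The causes of these shifts were not tested.

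Same-numbered libraries of HFD WT and chow WT had correlations of deviations of 0.11, 0.02 and -0.03. Those of Sirt3 AKI and chow WT had 0.06, 0.18 and 0.05, and those of Sirt3 AKI and HFD WT -0.002, -0.07 and -0.03. Libraries with different numbers had values from -0.21 to 0.14. The numbers were not taken as pairs. With the replicate block miR-301a-3p had a value of -0.80 (adjusted p = 0.0516) in Sirt3 AKI against HFD WT and -0.91 in HFD WT against chow WT, and the counts of changed microRNAs were 154, 31 and 161. In chow WT, miR-130b-5p had 1 to 5 counts per library and miR-301b-3p 5 to 14, so depth limits the precision of both. In the larger batch the single Sirt3 AKI library is assumed to vary like the libraries of the other groups.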
